A study of Mus musculus with 12 samples.

Results

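The genes described here are Ccl20, Slc7a11, Tfrc, Fos, Abcb1a and Pparg, 6 of the 750 genes measured. They were chosen by their log2 values in tumours against the cultured cell line that formed those tumours. Each was lower in 1 or both kinds of host. Those values are therefore given below as a description. Where a fit over all genes calls them lower than the line, that is no test of them, since the same contrast chose them. The assay was NanoString's nCounter with its Mouse PanCancer Immune panel, in which probes with barcodes hybridise to RNA and are counted. The line was mT3-2D, KPC mouse pancreatic cancer cells, with 2 samples from culture. Subcutaneous tumours grown from it came from immunocompetent wild-type (WT) hosts, with 5 samples, and from immunodeficient SCID hosts, which lack mature T and B cells, also with 5 samples. All 3 groups thus share 1 cell line, and the labels name no strain, age or treatment of the hosts. Titles of the tumours carry further numbers, some of them shared, whose meaning is not stated and which are used below only as possible blocks. Nothing else ties a tumour to an animal, so every p-value is relative to sample spread, which may be partly technical. If tumours with a shared number came from 1 animal, independent units are fewer than samples. The p-values and intervals may then be too small.

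The 6 genes have separate roles. Ccl20 is a chemokine that epithelial cells secrete on inflammatory signals, and its receptor Ccr6 sits on some T cells, B cells and dendritic cells. Slc7a11 encodes xCT, the cystine importer that feeds glutathione synthesis and limits ferroptosis, and Tfrc encodes the transferrin receptor, by which dividing cells take up iron. Abcb1a encodes a P-glycoprotein that pumps drugs out of cells. Fos is an immediate early gene whose product pairs with Jun in the transcription factor AP-1, and Pparg encodes a nuclear receptor that controls lipid genes. Serum and growth factors in a culture dish are classical inducers of Fos, and their part in the values of Fos below was not tested. In GRCm38.p6 the RefSeq genes are at chr1:83116766-83119167 (Ccl20), chr3:50364936-50499087 (Slc7a11), chr16:32608896-32632794 (Tfrc), chr12:85473890-85477274 (Fos), chr5:8567091-8748575 (Abcb1a) and chr6:115360879-115490404 (Pparg).

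All values are the authors' normalized log2 values, in which a difference of 1 is a 2-fold change. Recovered probe counts summed to 368925 to 558445 per sample. A background level was set at 36.4 probe counts, the 95th percentile of 19 T and B cell genes in the line samples, which is a log2 value of 4.66 to 5.62 in different samples. The probe counts of WT tumours 2 and 3 were nearly those of 1 library read again (chi-square per degree of freedom 1.2, against 17.1 or more for the other tumour pairs within a group), so their mean was counted as 1 sample and n = 4 for WT tumours. Their titles carry different numbers, and that of WT tumour 3 is shared with WT tumours 4 and 5, which were kept as separate samples. SCID tumours 1 and 2 also share a title number, as do SCID tumours 3 and 4. WT tumour 1 and SCID tumour 5 stood apart from their groups together, and their deviations from the group means correlated across genes (r = 0.36). In the line, 8 of 8 measured epithelial genes were above background, while only 1 or 2 of 11 leukocyte genes and 1 of 10 endothelial genes were. The summed signal of the epithelial genes was 36050 to 38133 units in the line. WT tumours spanned 28625 to 53037 units and SCID tumours 43472 to 65984. Every tumour except WT tumour 1 was above both line samples. For leukocyte genes the sum was 212 to 215 units in the line, and tumours reached 1934 to 3462 (WT) and 1125 to 2388 (SCID). Endothelial genes summed to 138 to 147, 1681 to 2175 and 1136 to 2166 units, and fibroblast genes to 4316 to 4326, 35031 to 60702 and 30222 to 57518 units. Genes at background in every tumour included Marco of the macrophage list, Mpo, Elane and Camp of neutrophils, Cd4, Cd8a, Cd2 and Cd5 of T cells, Ms4a1, Cd79a, Cd79b, Blk and Pax5 of B cells, and Klrb1c of NK cells. In such whole tumours, fewer cells of a type and less RNA per cell cannot be told apart, and the part of the added host cells in the differences below was not tested.

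Every tumour of both hosts lay below both line samples for 6 of the 6 genes, a pattern that 3.73% of all genes showed. With the limma fit, 5 of the 6 were lower in WT tumours (2.67% of all genes were) and 5 in SCID tumours (2.8% of all genes were), 4 of them in both (2.13% of all genes were), and nothing is read from these counts because that contrast chose the genes. Fos was not called in WT tumours and Abcb1a not in SCID tumours. The calls of Pparg in both hosts and of Fos in SCID tumours were lost without either line sample, and that of Pparg in SCID tumours also without WT tumour 4 or 5, the averaged pair or SCID tumour 4. Most of the panel lay the other way: 69.7% of genes were called in WT and 54.4% in SCID tumours, with 67.1% of genes higher in WT tumours than in the line and 51.6% higher in SCID tumours. In all, 25 genes (3.33%) were lower in at least 1 host, of which 19 are not on the list, and the list does not follow the size of the change. Taking the larger of the differences in the 2 hosts, its smallest was that of Pparg, at -1.28 in WT and -1.10 in SCID tumours, just outside lay Il22ra1 at -1.26 and -1.13, and 5 genes not listed exceeded Pparg on that measure, the largest being Il1rn at -1.55 and -1.91.

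**Figure D1:**
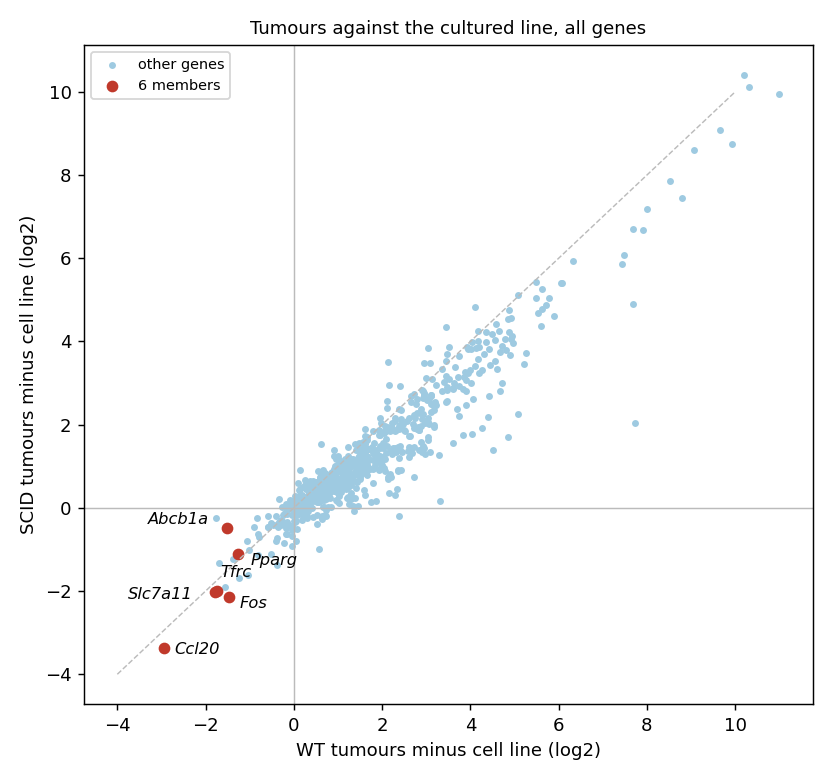
Each point is 1 of 750 genes, with the mean log2 difference of WT tumours from the line on the x axis and that of SCID tumours on the y axis; the dashed line marks equal differences. The 6 genes lie at the lower left, Ccl20 lowest at -2.94 and -3.38, while Abcb1a is nearer to 0 in SCID tumours (-0.47) than in WT tumours (-1.52).

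Ccl20 showed the largest difference from the line among the 6 genes. It was at log2 values of 8.19 and 8.24 in the line. In WT tumours 1 to 5 its values were 4.48, 5.14, 5.36, 5.96 and 5.39, and in SCID tumours 1 to 5 they were 5.28, 4.13, 4.47, 5.43 and 4.86. The line gave 408 and 435 probe counts of Ccl20, and the tumours between 19 and 57. Tumour values therefore lay around the background level, above it in WT tumours 3, 4 and 5 and in SCID tumour 4 and below it in the other 6. Means were 5.27 ± 0.61 (SD, n = 4) in WT and 4.84 ± 0.54 (SD, n = 5) in SCID tumours, and the differences from the line were -2.94 and -3.38, a 7.70-fold and a 10.4-fold lower value. With values raised to background these differences became -2.68 and -2.95. Ccr6, the receptor gene of Ccl20, was named after its values were seen and was at background in every sample, with means of 2.96 in the line, 4.21 in WT and 3.48 in SCID tumours.

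The Ccl20 promoter is shown because it carries a run of NF-kappaB type, the family of factors through which inflammatory signals reach this gene. The stretch is 250 bases up to the RefSeq start site, chr1:83116516-83116765 on the plus strand of GRCm38.p6, and capitals mark GGGAAAACCC, whose first base is at -81.
Ccl20: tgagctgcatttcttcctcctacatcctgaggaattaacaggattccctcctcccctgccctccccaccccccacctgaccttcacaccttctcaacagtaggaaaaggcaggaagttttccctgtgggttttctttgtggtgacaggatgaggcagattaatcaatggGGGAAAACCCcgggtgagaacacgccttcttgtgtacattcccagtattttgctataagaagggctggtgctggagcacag
The letters of the run were chosen after the sequence had been seen, so their match here was certain and tests nothing. Of 32851 mouse promoter stretches of this length, 0.113% hold the run on either strand. The degenerate kappaB site that was also searched for had no match in this stretch. Of 20 measured genes of the Ccl20 receptor, interleukin 17 and epithelial chemokine list, 2 were lower and 7 higher than the line in WT tumours and 2 lower and 2 higher in SCID tumours, with medians of 0.65 and 0.42 beside 1.21 and 0.81 over all genes. Besides Ccl20, the lower gene was Il22ra1, a receptor chain for interleukin 22 on epithelial cells, at -1.26 in WT (limma adjusted p = 0.0203) and -1.13 in SCID tumours (limma adjusted p = 0.0354). Its calls were lost without either line sample (adjusted p = 0.0722 to 0.156), and in SCID tumours also without SCID tumour 2, 4 or 5 (0.0558 to 0.0656). None of the 11 NF-kappaB genes was lower in tumours than in the line, and 6 were higher in WT and 1 in SCID tumours. Over all genes, 2.67% were lower and 67.1% higher in WT tumours, and 2.8% lower and 51.6% higher in SCID tumours. The absence of a lower gene among 11 is near that share and says nothing about the pathway. The same shares stand beside the counts against the line of the other lists below. Any of the 6 genes counted as lower in a list, here or below, is there through how the genes were chosen.

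Slc7a11 was also lower in every tumour. Its log2 values were 7.45 and 7.26 in the line. In the WT tumours they were 5.73, 5.48, 4.85, 5.13 and 6.21 in order of number, and in the SCID tumours 4.81, 5.17, 5.09, 5.84 and 5.77. The tumours thus held 26 to 72 probe counts against 244 and 221 in the line, with WT tumours 2, 3 and 4 and SCID tumour 1 at background. The group means were 5.56 ± 0.51 (SD, n = 4) in WT and 5.34 ± 0.45 (SD, n = 5) in SCID tumours, which put the differences from the line at -1.80 and -2.02.

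The promoter of Slc7a11 is shown for the amino acid response elements through which ATF4 is known to act on this gene when cystine or other amino acids run short. It lies at chr3:50443614-50443863 on the minus strand of GRCm38.p6, inside the span of the RefSeq gene (50364936 to 50499087), and capitals mark TGATGCAAN and its reverse complement, at -66 and -48.
Slc7a11: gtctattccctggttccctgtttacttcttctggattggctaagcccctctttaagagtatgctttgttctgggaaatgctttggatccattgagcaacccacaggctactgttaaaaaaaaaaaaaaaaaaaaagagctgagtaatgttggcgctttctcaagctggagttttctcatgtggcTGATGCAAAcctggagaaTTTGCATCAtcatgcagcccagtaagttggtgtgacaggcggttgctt
These letters were chosen after the sequence had been seen, and 0.785% of all promoter stretches hold them at least once.

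Tfrc had the smallest spread of the 6 genes among tumours. The line samples were at log2 values of 11.11 and 11.01. The WT tumours were at 9.22, 9.56, 9.56, 9.004 and 9.45, and the SCID tumours at 8.98, 9.70, 9.20, 8.73 and 8.68. The highest tumour, SCID tumour 2, was 1.30 below the lower line sample, and no tumour came near background. Mean values were 9.31 ± 0.25 (SD, n = 4) in WT and 9.06 ± 0.42 (SD, n = 5) in SCID tumours, with differences of -1.75 and -1.999 from the line. Among 395 genes above background in all tumours, 55.7% had a smaller within-group SD than Tfrc. Of the 14 measured genes of the iron, oxidative stress and redox list, Tfrc and Slc7a11 were the 2 lower ones in each host, with 6 genes higher in WT and 4 in SCID tumours. Of 7 measured proliferation genes, Tfrc was the 1 lower gene in each host and 3 were higher in each. Birc5, a mitotic and survival protein, differed by -0.30 (WT) and -0.42 (SCID) from the line (limma adjusted p = 0.494 and 0.348), and Myc by -0.41 and -0.42 (limma adjusted p = 0.181 and 0.175). Birc5 and Myc were picked after their values were seen, whereas the 3 higher genes of this list went the other way.

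Abcb1a lay closer to the line in SCID than in WT tumours. It was at log2 values of 10.64 and 10.62 in the line. WT tumours 1 to 5 were at 10.26, 8.88, 9.03, 8.54 and 8.70, and SCID tumours 1 to 5 at 9.73, 10.22, 9.82, 10.45 and 10.56. SCID tumours 4 and 5 were the closest to the line, the latter 0.06 below its lower sample, and WT tumour 1 lay among the SCID tumours while the other WT tumours lay below all of them. The mean was 9.11 ± 0.78 (SD, n = 4) in WT and 10.16 ± 0.37 (SD, n = 5) in SCID tumours. Against the line the difference was -1.52 in WT tumours, or 2.86-fold lower, and -0.47 in SCID tumours, or 1.39-fold lower. Without WT tumour 1 the WT difference was -1.90. Of 8 measured membrane transporter genes, Abcb1a and Slc7a11 were the 2 lower ones in WT tumours and Slc7a11 the 1 lower in SCID tumours, while 6 were higher in each host. Whether the probe separates Abcb1a from its close paralogue Abcb1b was not tested. Endothelial cells are a known site of P-glycoprotein, and their part in the tumour values of Abcb1a was not tested.

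Fos had the widest spread of the 6 genes among tumours. Its log2 values were 10.27 and 10.26 in the line. They were 7.15, 9.60, 9.62, 9.04 and 9.38 in the WT tumours and 8.88, 8.08, 8.14, 8.65 and 6.85 in the SCID tumours, in order of number. WT tumour 1 and SCID tumour 5 were the 2 lowest, and the highest and lowest tumours were 6.79-fold apart after averaging WT tumours 2 and 3. Of the 395 genes above background in all tumours, 98.0% had a smaller within-group SD. The means of 8.79 ± 1.12 (SD, n = 4) in WT and 8.12 ± 0.79 (SD, n = 5) in SCID tumours gave differences from the line of -1.47 and -2.14. Without WT tumour 1 the first was -0.92, and without SCID tumour 5 the second was -1.83.

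The Fos promoter is printed for TGACGT, the core of a cAMP response element, near its start, one of the elements through which signals are known to switch this gene on. It lies at chr12:85473640-85473889 on the plus strand of GRCm38.p6, and capitals mark the GC box GGGCGG, here on the other strand at -74, and TGACGT at -66.
Fos: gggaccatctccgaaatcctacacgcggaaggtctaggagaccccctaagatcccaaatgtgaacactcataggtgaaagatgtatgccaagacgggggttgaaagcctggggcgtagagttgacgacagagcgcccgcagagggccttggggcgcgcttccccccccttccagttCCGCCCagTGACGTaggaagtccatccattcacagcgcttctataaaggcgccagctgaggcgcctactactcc
TGACGT, chosen after the sequence had been seen, is in 6.47% of all promoter stretches, 1 at a Tfrc start site among them, and the GC box in 32.7%.

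Jun and Egr1 lay nearer to the line than Fos. Jun, which pairs with Fos in AP-1, was at means of 8.46 in the line, 8.68 ± 0.34 (SD, n = 4) in WT and 8.50 ± 0.31 (SD, n = 5) in SCID tumours (limma adjusted p = 0.479 and 0.917 against the line). Egr1, another immediate early gene, was at 8.96, 8.99 ± 0.50 and 8.96 ± 0.34 in the same order (limma adjusted p = 0.936 and 0.996). Both were chosen after their values were seen. Of 27 measured genes of the AP-1 and MAP kinase list, 1 was lower and 9 higher than the line in WT tumours, and 2 were lower and 7 higher in SCID tumours, with medians of 0.30 and 0.15. The lower gene in both hosts was Dusp6, a phosphatase that is induced by and acts on ERK kinases, at -0.79 in WT (limma adjusted p = 0.00116) and -0.69 in SCID tumours (limma adjusted p = 0.00316). The second lower gene in SCID tumours was Fos itself.

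Pparg had log2 values of 8.28 and 8.12 in the line. The WT tumours were close together, at 6.62, 7.11, 7.11, 6.91 and 7.06. In the SCID tumours the values were 7.66, 7.37, 7.52, 7.17 and 5.77. SCID tumour 5 was the lowest of all tumours, and the other SCID tumours were all above the WT tumours. Means were 6.93 ± 0.22 (SD, n = 4) in WT and 7.10 ± 0.76 (SD, n = 5) in SCID tumours, at -1.28 and -1.10 from the line, and the SCID difference was -0.77 without SCID tumour 5. Of the 11 measured genes of nuclear receptors and lipid handling, Pparg was the 1 lower gene in each host and 7 were higher in each. Among them Cd36, a fatty acid receptor known as a target of this nuclear receptor and picked after its values were seen, was at background in both line samples and at 6.08 ± 0.58 (SD, n = 4) in WT and 6.86 ± 0.64 (SD, n = 5) in SCID tumours, 2.16 and 2.95 above the line (limma adjusted p = 0.00135 and 0.000162). Because the line was at background for Cd36, these differences depend on that level: with values raised to background they were 1.39 and 2.17. Scaling to the median over all genes turned the WT difference of Cd36 to -0.44 (limma adjusted p = 0.28). Adipocytes, which are rich in Pparg, could not be checked, since of 6 adipocyte genes only Pparg itself was among those measured.

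**Figure D2:**
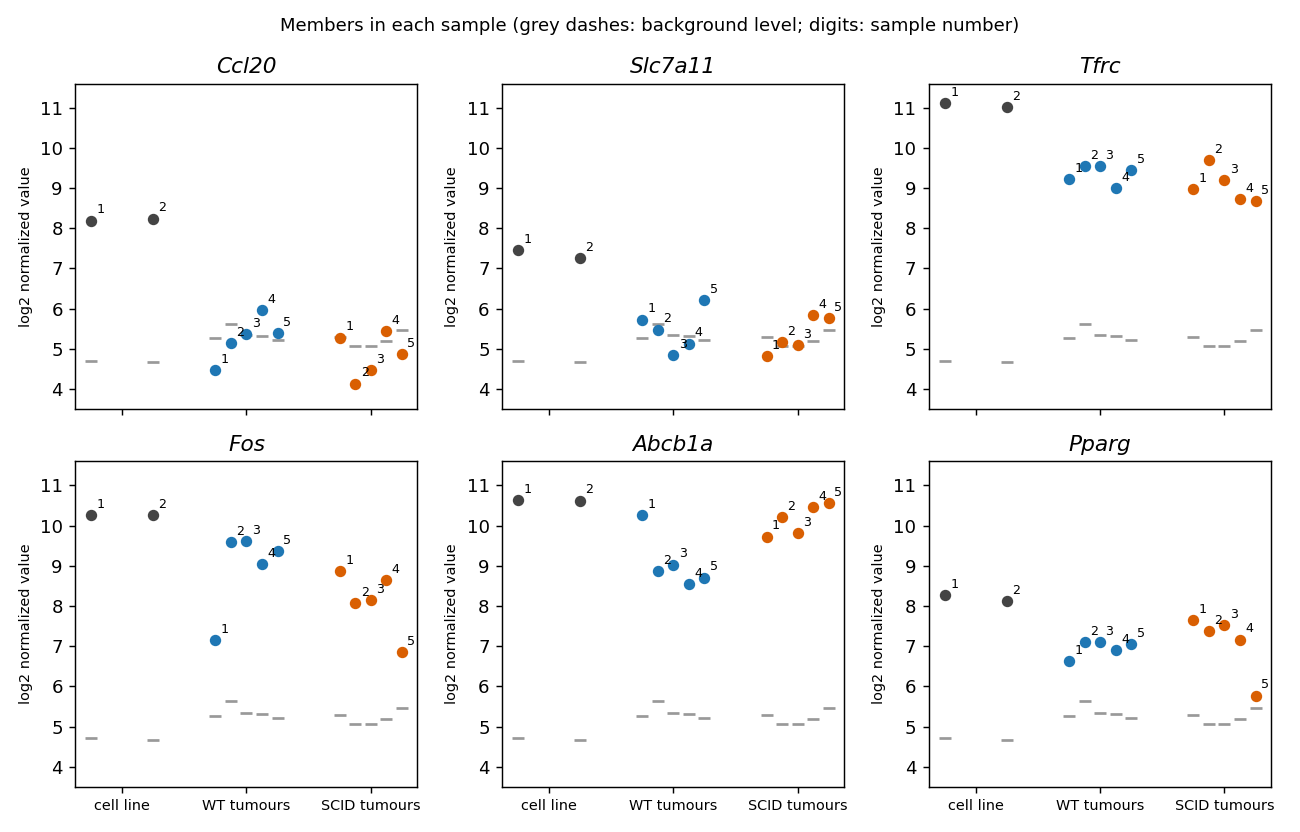
Log2 normalized values of the 6 genes in each of the 12 samples, with 1 point per sample, its number beside it and its background level as a grey dash. All tumours lie below both line samples for each gene, Ccl20 and Slc7a11 lie near background in tumours, and WT tumour 1 and SCID tumour 5 have the lowest Fos values (7.15 and 6.85).

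The comparison of the 2 kinds of host was not itself used to choose the genes, although it uses the same tumours. It asks whether a host without T and B cells alters expression in tumours of 1 line. A gene listed for being lower than the line in 1 host alone can differ between hosts through that choice. Abcb1a was called lower only in WT tumours and Fos only in SCID tumours, so their p-values and intervals here are not free of the choice. None of the 6 genes was called between SCID and WT tumours, against 15.9% of all genes (0.133% called higher), and 0 of 6 had groups that did not overlap, against 16% of all genes. The nearest to a call was Abcb1a, 1.04 higher in SCID tumours (SE 0.35, 95% interval 0.27 to 1.82, limma adjusted p = 0.0685), a 2.06-fold higher value. An exact permutation test, two-sided and unadjusted, was run for each of the 6 genes. This exact permutation test gave p = 0.0476 for Abcb1a, its smallest value, and p = 0.302 to 0.722 for the other genes. With 4 against 5 samples, the smallest p that the exact permutation test allows is 0.00794. Abcb1a was called with WT tumours 2 and 3 as separate samples (limma adjusted p = 0.0317), without WT tumour 1 (0.00426), and without both WT tumour 1 and SCID tumour 5 (0.00505). When each sample was scaled to its median over all genes its adjusted p was 0.014, and with trimmed mean of M values factors it was 0.0321. In most other settings Abcb1a was not called. Its limma adjusted p was 0.159 without WT tumour 4, 0.192 without WT tumour 5 and 0.134 without the averaged pair. It was 0.0594 when scaled on widely expressed genes and 0.0956 with values raised to background.

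For the other genes the intervals of the difference included 0. Fos was -0.68 in SCID relative to WT tumours (SE 0.54, 95% interval -1.87 to 0.52, limma adjusted p = 0.427), and it rested on single tumours. It was -1.22 without WT tumour 1 (limma adjusted p = 0.067), -0.36 without SCID tumour 5 (0.635) and -0.91 without both (0.0351). The difference was -0.44 for Ccl20 (95% interval -1.19 to 0.32), for which most tumours were at background, and -0.22 for Slc7a11 (95% interval -0.87 to 0.43). For Tfrc it was -0.25 (95% interval -0.76 to 0.27) and for Pparg 0.17 (95% interval -0.61 to 0.95). Without SCID tumour 5 the difference of Pparg was 0.50 (SE 0.18, limma adjusted p = 0.0748). With all samples, limma adjusted p-values of Ccl20, Slc7a11, Tfrc and Pparg were 0.422, 0.644, 0.509 and 0.773. The intervals reached as far as -1.87 for Fos, -1.19 for Ccl20 and 0.95 for Pparg, so the genes are not shown to be alike in the 2 hosts. In both hosts the order of levels was the line first, which largely restates how the genes were chosen. With the deposited scaling and the averaged pair, none of the genes described here passed the limma test between WT and SCID tumours. Abcb1a did pass it in some of the other settings given above.

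Over all genes, 15.9% were called between hosts and 15.7% were called lower in SCID tumours, and these shares stand beside each count here. No list was tested as a set. Among the related genes, the AP-1 list had 0 of 27, the Ccl20 list 0 of 20 and the proliferation list 0 of 7 genes called between hosts. Their median changes were -0.15, -0.23 and -0.12 beside -0.33 over all genes. In the NF-kappaB list 2 of 11 were lower in SCID tumours. These were Tnfaip3, a feedback inhibitor of the pathway, at -0.85 (SE 0.23, limma adjusted p = 0.0325), and Ikbke, a kinase of it, at -0.81 (SE 0.17, limma adjusted p = 0.00948). The call of Tnfaip3 was lost without WT tumour 4 or 5, SCID tumour 1 or 2, or the averaged pair (limma adjusted p = 0.0611 to 0.104). Scaling ended it too, under each of the 4 other scalings for Tnfaip3 (0.0637 to 0.52) and under 3 for Ikbke (0.0749 to 0.545). Of 8 measured transporter genes 4 were lower, led by the peptide transporter genes Tap1 at -2.82 and Tap2 at -2.21 (limma adjusted p = 0.00208 and 0.000918), while Slc7a11 and Abcb1a were not called. The redox list had 1 of 14 and the lipid list 1 of 11 called, both lower. Abcg1, a cholesterol exporter of the transporter and lipid lists, was at -0.70 (limma adjusted p = 0.0339), and Nos2, the inducible nitric oxide synthase of the redox list, at -0.99 (limma adjusted p = 0.0325). Only 1 WT sample and no SCID tumour had Nos2 over background, and with values raised to background its adjusted p was 0.327. The 4 other scalings ended the calls of Abcg1 (limma adjusted p = 0.0749 to 0.759) and Nos2 (0.0594 to 0.316). Leaving out single samples ended the call of Abcg1 for WT tumour 5, SCID tumours 1, 3 and 4 and the averaged pair (0.0679 to 0.106), and that of Nos2 for WT tumours 2, 4 and 5, SCID tumours 2, 3 and 4 and the averaged pair (0.0535 to 0.0715).

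The tumours were also set against 2 epithelial genes. Epcam, an adhesion molecule of epithelial cells, had log2 values of 9.80, 11.93, 11.92, 12.78 and 12.13 in WT tumours 1 to 5 and 11.52, 10.33, 11.74, 10.73 and 7.55 in SCID tumours 1 to 5. The 2 tumours lowest in Epcam, SCID tumour 5 and WT tumour 1, were the 2 lowest in Fos. Among the WT tumours the order of Abcb1a from low to high was that of Epcam from high to low. Among the SCID tumours the 2 orders differed, and only SCID tumour 5 took the same place in both. Cdh1, which encodes E-cadherin, was also lowest in SCID tumour 5 and WT tumour 1, at 10.20 and 10.35 against 10.83 to 12.21 in the others. The sum over the 8 epithelial genes did not follow this: WT tumour 1 had the lowest sum of all samples (28625 units), but SCID tumour 5 had the highest (65984 units). In the line, Epcam was at 8.78 and 8.80 while both Fos and Abcb1a were high, so the line did not follow the order of the tumours for Fos. Epcam and Cdh1 were chosen after their values were seen, and the part of epithelial content in the values of Fos and Abcb1a was not tested.

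**Figure D3:**
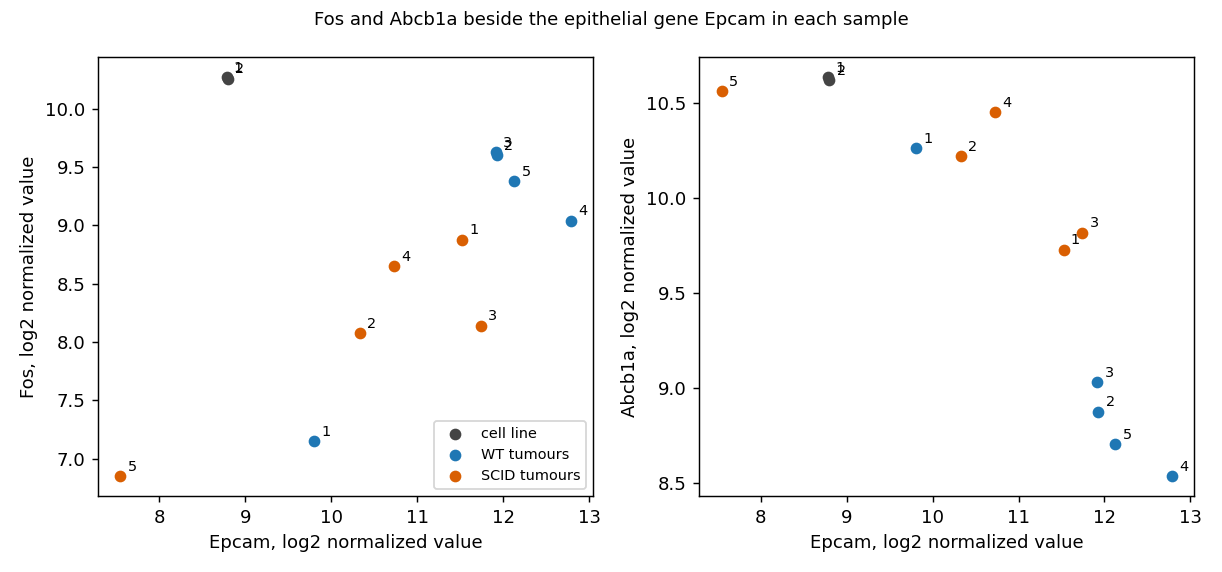
Log2 normalized values of Fos (left) and Abcb1a (right) against Epcam in the 12 samples, with the sample number beside each point. In tumours Fos is lowest where Epcam is lowest (SCID tumour 5, Epcam 7.55, Fos 6.85) and Abcb1a is lowest where Epcam is highest (WT tumour 4, Epcam 12.78, Abcb1a 8.54).

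How far the genes lie below the line depends on scaling. As deposited, the median over all genes was 1.21 in WT and 0.81 in SCID tumours relative to the line, and that of 71 widely expressed genes was 0.31 and 0.19. Scaling on the widely expressed genes moved Ccl20 to -3.26 and -3.59 and Abcb1a to -1.83 and -0.68 in WT and SCID tumours. Scaling to the median over all genes, most of which are at background in the line, moved Ccl20 to -5.55 and -5.38. The 6 genes stayed below the line in both hosts under the 5 scalings, but this could not have come out otherwise. Each other scaling lowered tumours relative to the line, with medians over all genes of 0.89 to -1.40 (WT) and 0.60 to -1.20 (SCID). Each also raised SCID relative to WT tumours, so Abcb1a and Pparg could only stay higher in SCID tumours. Fos stayed lower in each. Slc7a11 turned to higher in SCID tumours under 3 scalings, Tfrc under 2 and Ccl20 under 1, by at most 0.38.

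**Figure D4:**
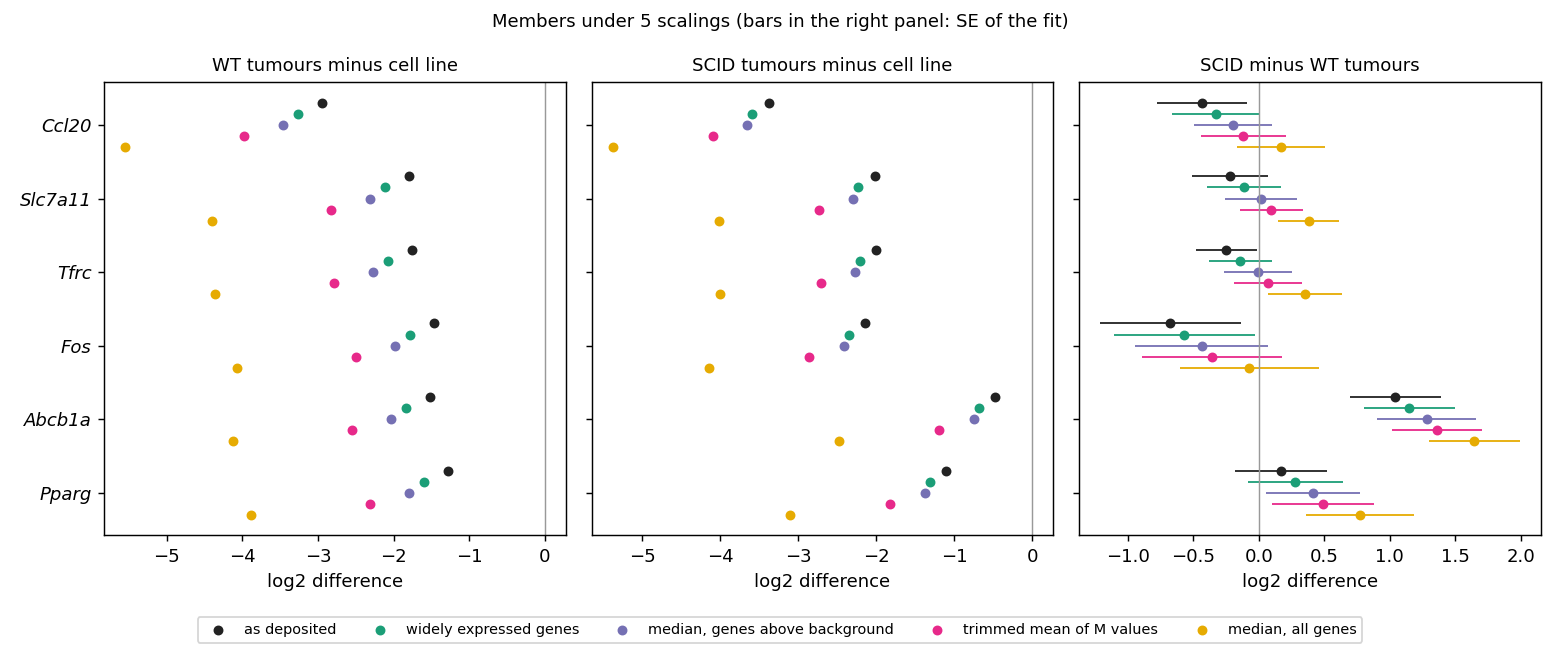
Log2 differences of the 6 genes for WT tumours minus line, SCID tumours minus line and SCID minus WT tumours under 5 scalings, with the SE of the fit as bars in the right panel. The differences from the line are negative throughout, which was fixed in advance because every other scaling lowers the tumours relative to the line. Between hosts Abcb1a lies between 1.04 and 1.65.

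The other promoter motifs searched on both strands were AP-1 (TGANTCA, in 6.75% of all promoter stretches), the full cAMP response element (TGACGTCA, 1.55%), the antioxidant response core (TGACNNNGC, 10.2%) and the E-box (CACGTG, 6.02%). A degenerate kappaB site (0.98%), the CArG box (1.47%) and the PPAR direct repeat (0.0335%) were searched too. RefSeq gave 9 start sites for the 6 genes, with several for Tfrc and Pparg. Of these motifs the antioxidant response core was present, at 1 Pparg start site, and the others had no match in the 9 stretches. The matches describe letters in 250 bases and say nothing of binding.

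For each gene the closest patterns were sought among the genes above background in both line samples, by the root mean square difference over the 9 tumours of the log2 value minus the line mean. Slc7a11 and Tfrc were closest to each other, at 0.59, with Il1rn next to Tfrc at 0.62 and Blnk next to Slc7a11 at 0.78. Fos was closest to Il1rn (0.63) and Tfrc (0.84). Pparg was closest to Il22ra1 (0.38) and Msln (0.48), and Abcb1a to Raet1c (0.51) and Dusp6 (0.69). Ccl20 had no close partner, its nearest being Slc7a11 at 1.43 and Tfrc at 1.496.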

How the data were processed

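The 12 RNA samples were run on NanoString nCounter, per the labels. The authors deposited log2 normalized values of 750 genes and a table of linear signal of 749; the 2 differ by at most 5.4e-09 on the log2 scale. Software, normalization genes and background treatment: not given in the sources used here. Each deposited signal value is a whole probe count times 1 factor per sample (100% of values within 0.02 counts), and dividing by that factor gave the counts; 1 count was worth 0.694 to 1.35 units. A second, independent search found no single step in 6 of the 12 columns, so recovered counts were used for depth, background, the likeness of replicates and 1 scaling, and no count model was fitted.

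The hosts were compared by limma 3.58.1 (R 4.3.3; lmFit and eBayes, two-sided) on the log2 values of the tumours, with Benjamini-Hochberg adjustment over 750 genes and a threshold of 0.05. Tumours and line were fitted together over the 3 groups. No filter or pseudocount was used. The fits were tested on simulated data. Promoters came from RefSeq, GRCm38.p6; 6 of 6 genes matched. 0 columns from outside the series were present.

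The 6 genes, the related gene lists and the averaging of WT tumours 2 and 3 were chosen with earlier results of these data known. Genes named beyond the 6 were the 2 closest patterns of each gene and, per list, the 2 largest changes called between hosts; others are stated as chosen after their values were seen. Replicate numbers did not pair the tumours (correlations of same-numbered deviations -0.41 to 0.24). Probe counts of 19 to 72 limit the precision of Ccl20 and Slc7a11 in tumours.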

Additional observations from a re-analysis of the deposited data

Results flagged for a closer look

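In the 5 SCID tumours, Pparg was at a log2 value of 5.77 in SCID tumour 5, far below the other 4 tumours of that group: the gap to the nearest was 0.739 of the group's range, above Dixon's critical value of 0.71. This was 1 of 12 groups examined, 6 genes in 2 hosts, and chance gives such a gap in about 1 in 20 groups. Pparg was above background there, with 45 probe counts.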

How the results depend on the processing

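Counts of genes called depend most on scaling. Between hosts, 118 genes were lower and 1 higher in SCID tumours as deposited. Scaling to the median over all genes gave 37 and 49, trimmed mean of M values factors 56 and 8, and the median over genes above background in every sample (chosen after seeing the data) 62 and 4. Values raised to background gave 66 lower. The higher count was 2 with WT tumours 2 and 3 apart, on widely expressed genes, with either title block and with 1 fit over all groups, and 3 using just the larger title series. Dropping WT tumour 1 together with SCID tumour 5 (also chosen after seeing the data) gave 189 and 6. Leaving out 1 tumour gave 67 to 156 lower and 0 to 3 higher. The replicate block gave 160 lower and 1 higher; replicate numbers do not pair the samples, and Abcb1a, called with WT tumours 2 and 3 apart and no block (adjusted p = 0.0317), was not called with it (0.0761).

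Against the line, the counts of 20 lower and 503 higher in WT tumours became 483 and 106 under median scaling and 148 and 249 with trimmed mean of M values factors, and those of 21 and 387 in SCID tumours became 481 and 101, and 119 and 212. The lower count in WT tumours was 38 on widely expressed genes and 56 over genes above background, where the SCID count was 37. Leaving out 1 sample gave 12 to 23 lower and 407 to 513 higher in WT, and 10 to 22 and 273 to 401 in SCID tumours.

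Between hosts, median scaling turned Ccl20 to 0.17, Slc7a11 to 0.38 and Tfrc to 0.36. Trimmed mean factors turned Slc7a11 to 0.10 and Tfrc to 0.071, and the median over genes above background turned Slc7a11 to 0.020. Abcb1a was also called with a random block by title number (0.0376) and a fixed block by title series (0.0414); over all alternatives its adjusted p was 0.00426 to 0.192. The cause of these changes was not tested. A count model on the recovered counts was not run, since a separate search found no single count step in 6 of 12 columns.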
